A study of Mus musculus with 11 samples.

Results

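Txnip, its relatives Arrdc1, Arrdc2, Arrdc3 and Arrdc4, and the transcription factor genes Mlxip, Mlxipl and Mlx were followed in cultured mouse hippocampal neurons put at low oxygen. These 8 genes were chosen by symbol among 48709 gene IDs, and all 8 were found. Gene expression had been measured by RNA sequencing of polyadenylated RNA in primary neurons grown for 10 days at 20% oxygen. The hypoxia group (5 libraries) then spent 4 h at 1% oxygen, and the control group (6 libraries) stayed at 20% oxygen. Per the labels, control cells came from the same isolation as the hypoxia cells, but whether 1 isolation or several supplied the libraries of a group, and whether each came from its own dish, is not said. No strain, age or genotype was given, and all errors measure the spread between these libraries, which may be technical. The genes were chosen with the difference between hypoxia and control already known, so their own differences are given as a description, without p-values.

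TXNIP and the ARRDC proteins are alpha-arrestins, adaptors that link membrane proteins to ubiquitin ligases of the NEDD4 family and so send them to endocytosis or degradation. TXNIP also binds and inhibits thioredoxin, and both TXNIP and ARRDC4 lower glucose uptake. MondoA (encoded by Mlxip) and ChREBP (Mlxipl) are paralogous transcription factors that sense glucose 6-phosphate. Each pairs with MLX and binds carbohydrate response elements, which consist of a pair of short sites that resemble an E-box, and Txnip and Arrdc4 are the best known MondoA targets. In neurons, Txnip is known as a glucose-responsive gene linked to oxidative stress.

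The promoters of the genes were compared by their sequence. The 250 bases before the RefSeq start (build GRCm38.p6, both strands searched) are printed for the 3 genes whose levels differed most, Txnip, Arrdc4 and Arrdc3. Capitals mark CCAAT boxes (CCAAT or ATTGG), E-boxes (CACGTG) and paired sites, meaning CACGNG followed by any 5 bases and a further CACGNG.
Txnip promoter (chr3:96557707-96557956, plus strand): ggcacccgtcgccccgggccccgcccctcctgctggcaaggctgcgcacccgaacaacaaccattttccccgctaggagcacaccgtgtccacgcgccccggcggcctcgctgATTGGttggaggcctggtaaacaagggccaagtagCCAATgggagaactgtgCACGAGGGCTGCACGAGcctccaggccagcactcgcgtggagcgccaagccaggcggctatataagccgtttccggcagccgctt
Arrdc4 promoter (chr7:68749239-68749488, minus strand): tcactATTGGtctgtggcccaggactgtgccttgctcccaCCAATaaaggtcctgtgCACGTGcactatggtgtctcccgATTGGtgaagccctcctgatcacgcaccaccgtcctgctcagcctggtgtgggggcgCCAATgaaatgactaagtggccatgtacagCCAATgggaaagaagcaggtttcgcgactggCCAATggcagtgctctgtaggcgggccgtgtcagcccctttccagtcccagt
Arrdc3 promoter, first start (chr13:80883134-80883383, plus strand): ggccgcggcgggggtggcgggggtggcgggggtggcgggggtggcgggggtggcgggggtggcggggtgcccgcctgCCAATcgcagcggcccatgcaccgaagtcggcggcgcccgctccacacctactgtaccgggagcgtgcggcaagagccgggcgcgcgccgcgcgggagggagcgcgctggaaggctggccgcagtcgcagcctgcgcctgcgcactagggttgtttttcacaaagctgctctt

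The Txnip promoter held the paired sites as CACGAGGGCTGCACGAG, from 85 to 69 bases before the start. Such a pair occurred in 0.0487% of all 32851 promoter windows of 300 bases, and in no window of the other 7 genes. Only this 1 arrangement of letters was searched, so its absence does not show that a gene lacks a carbohydrate response element. The same promoter had CCAAT boxes 137 and 102 bases before the start and the forkhead motif GTAAACA 121 bases before it, a motif found in 3.65% of windows. The Arrdc4 promoter had 1 E-box, 193 bases before the start, and 6 CCAAT boxes. E-boxes occurred in 7.15% of windows and CCAAT boxes in 37.4%. Mlx had an E-box 40 bases before its start, and Mlxipl had one 98 bases before the first of its 2 starts. None of the 3 Arrdc3 windows had an E-box or the paired sites, and 2 of them, which overlap, had the same CCAAT box. The HIF core motif, ACGTG or GCGTG, was common (43.8% of windows), was present in all 8 genes, and overlaps every E-box. Of the 15 genes with the paired sites, 10 were tested for a difference. Of these, 2 were called lower in hypoxia (Txnip itself and Rbmxl1) and 2 higher (Fem1b and Fnip1). Of all genes tested, 12.8% were called lower and 10.1% higher, and nothing is read from so few genes. All were named after their values were seen. A match is a description of the letters, not of binding.

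**Figure D1:**
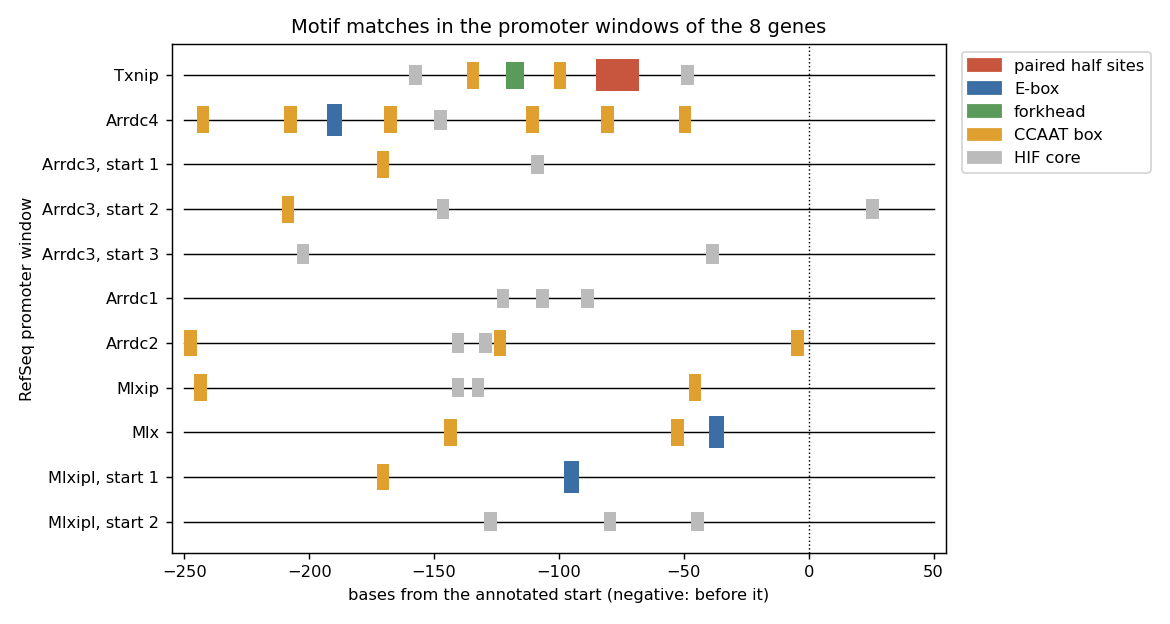
Motif matches (coloured boxes) in the 11 RefSeq promoter windows of the 8 genes, by distance in bases from the annotated start (dotted line). The paired sites appear in the Txnip window, E-boxes in the Arrdc4, Mlx and first Mlxipl windows, and HIF core matches that lie inside an E-box are hidden by it.

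Library depth ran from 16619493 to 31917157 counts, with no difference detected between the groups (exact permutation p = 0.801). Control 2 stood apart. Its chi-square per gene was 12.9 against control 1, 23.3 to 26.3 against controls 3 to 6 and 23.5 to 34.6 against the hypoxia libraries, while controls 3 to 6 differed from each other by 2.33 to 5.03. Control 1 differed from controls 3 to 6 by 8.38 to 13.6, and hypoxia 5 from the other hypoxia libraries by 8.26 to 9.81. Neuron markers were abundant and alike, with a summed level of 5690 to 6211 CPM (counts per 1000000 counts, scaled with TMM factors) in control and 5744 to 6157 CPM in hypoxia. Other cells were present: astrocyte markers summed to 1435 to 1643 CPM in control and 1418 to 1550 CPM in hypoxia, and fibroblast markers to 166.4 to 230.7 and 153.8 to 312.6 CPM. Of 6 oligodendrocyte lineage markers, 3 were lower in hypoxia (Olig1, Olig2 and Mog). Their sums were 108.2 to 148.8 CPM in control and 90.28 to 115.1 CPM in hypoxia. Pdgfrb was higher, 1 of 4 mural markers tested, while Rgs5, Cspg4 and Acta2 had log2 fold changes of -0.16, -0.12 and -0.43. Aqp4 was lower, 1 of 6 astrocyte markers, as was Foxj1, 1 of 4 choroid plexus and ependyma markers. No marker sum differed after adjustment (exact permutation p = 0.0238 for the oligodendrocyte lineage and 0.0455 for mural cells, both 0.227 adjusted). The part of these cells in the results below was not tested. Fewer cells of a type and less RNA per cell cannot be told apart in such bulk samples. Of 16235 genes tested with edgeR, 22.9% were called at an adjusted p under 0.05 (10.1% higher and 12.8% lower in hypoxia). The median over all genes tested was -0.02 on the log2 scale. In 7.26% of genes all hypoxia libraries lay below all controls, and in 6.72% all lay above.

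Of the 8 genes, 7 passed the filter on low counts; among these Txnip and Arrdc4 were called lower, Arrdc3 was called higher, and Arrdc1, Arrdc2, Mlxip and Mlx were not called. These same 3 genes were the ones whose groups did not overlap. Over these 7, the median was -0.07 on the log2 scale. As the genes were chosen from this comparison, nothing is read from the count beside the 22.9% of all genes. In the authors' deposited table of their own comparison the same 3 genes were listed, with log2 fold changes of -2.16 (Txnip), -0.92 (Arrdc4) and 0.88 (Arrdc3).

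Txnip (ENSMUSG00000038393, mm10 chromosome 3, 96557957 to 96561883, plus strand) ran from 18.8 to 35.5 CPM in control, with a median of 29.5 CPM. In hypoxia 1 to 5 it stood at 5.09, 5.27, 5.12, 5.05 and 9.54 CPM. The highest hypoxia library was thus well below the lowest control library, and 4 of the 5 hypoxia libraries were almost equal. The fitted level was 4.65-fold lower in hypoxia (log2 fold change -2.22, SE 0.17), the lowest log2 fold change of all genes tested. It was -2.21 without control 2 and -2.29 without control 1. An antisense gene, Gm15441, overlaps 606 bases of its exons. Gm15441 had a mean of 2.18 counts per library and Txnip 501.7. The library kit did not mark strand, so reads in the shared bases cannot be assigned to either gene.

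Arrdc4 (ENSMUSG00000042659, chromosome 7, 68736995 to 68749241, minus strand) moved the same way by less. It ran from 49.5 to 64.2 CPM in control (median 58.6 CPM) and stood at 25.5, 30.4, 23.6, 28.3 and 38.9 CPM in hypoxia 1 to 5. No hypoxia library reached the lowest control, and hypoxia 5 was again the highest of its group. The level was 1.93-fold lower (log2 fold change -0.95, SE 0.10; -0.94 without control 2 and -0.97 without control 1). The log2 ratio of Txnip to Arrdc4 within a library went from -1.03 ± 0.19 in control to -2.31 ± 0.21 in hypoxia (SD, n = 6 and 5), so the pair did not fall in proportion.

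Arrdc3 (ENSMUSG00000074794, chromosome 13, 80883384 to 80896042, plus strand), an adaptor known for the traffic of beta-adrenergic receptors, moved the opposite way. It ran from 86.7 to 135.8 CPM in control (median 108.3 CPM) and stood at 181.4, 190.4, 170.4, 201.6 and 215.2 CPM in hypoxia 1 to 5. Every hypoxia library was above every control library. The level was 1.80-fold higher (log2 fold change 0.84, SE 0.09), the 101st largest increase among the genes tested. It was 0.86 without control 2, 0.82 without control 1 and 0.80 without hypoxia 5. Arrdc4 had the 94th largest decrease.

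Arrdc1 and Arrdc2 were not called. Arrdc1 (chromosome 2, 24925352 to 24935252), which recruits the ESCRT protein TSG101 and drives the budding of vesicles from the plasma membrane, ran from 12.6 to 15.3 CPM in control and 10.7 to 13.0 CPM in hypoxia (log2 fold change -0.16, SE 0.07). Arrdc2 (chromosome 8, 70835129 to 70839720) ran from 11.9 to 15.1 and from 11.6 to 13.9 CPM (log2 fold change -0.07, SE 0.07). The groups overlapped for both genes.

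**Figure D2:**
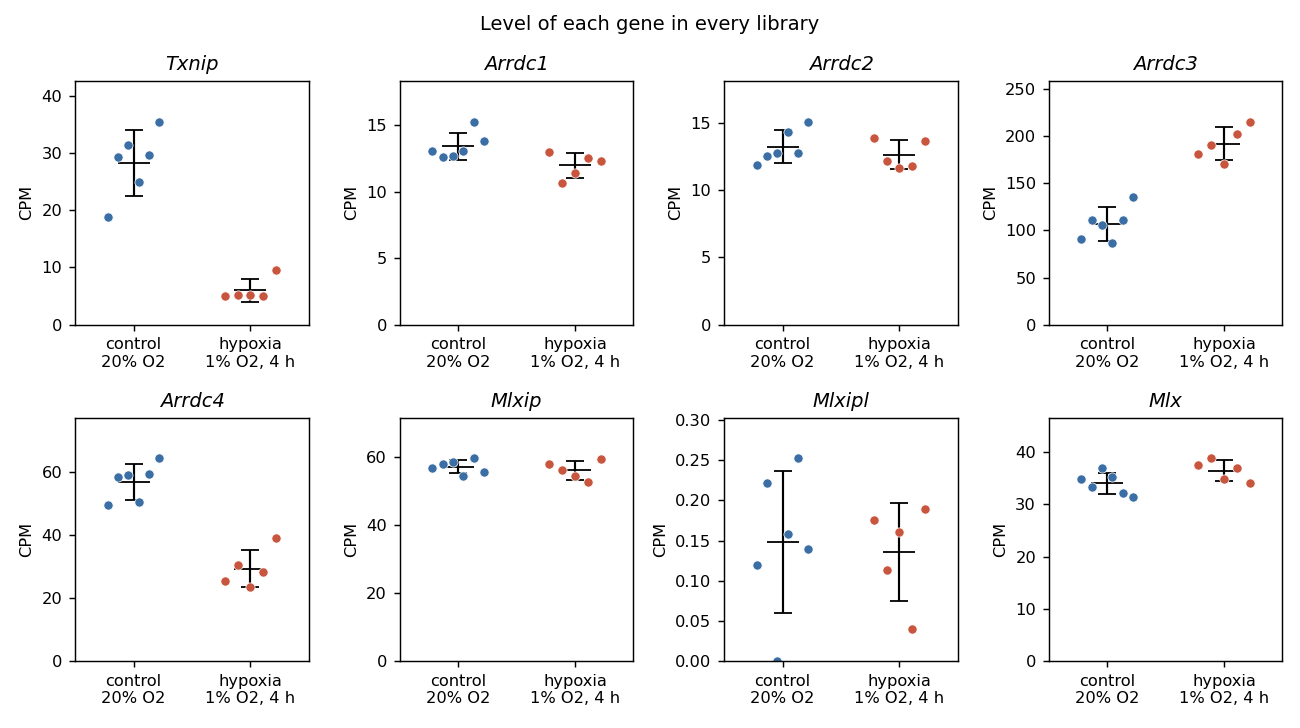
Level of each of the 8 genes in CPM (vertical axes from 0, a different scale in each panel) in the 6 control and 5 hypoxia libraries; points are libraries, bars the mean ± SD. Txnip and Arrdc4 lie lower and Arrdc3 higher in every hypoxia library than in any control library, and the groups overlap for the other 5 genes.

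The sensor genes themselves stayed close to their control levels. Mlxip (chromosome 5, 123394798 to 123457932), encoding MondoA, ran from 54.4 to 59.6 CPM in control (median 57.3 CPM) and stood at 57.9, 56.1, 54.3, 52.5 and 59.4 CPM in hypoxia 1 to 5. Its log2 fold change was -0.03 with an SE of 0.04. Mlx (chromosome 11, 101087277 to 101092207), the common partner, ran from 31.4 to 36.9 CPM in control (median 34.2 CPM) and stood at 37.6, 38.8, 34.9, 36.9 and 34.1 CPM in hypoxia 1 to 5. Its groups overlapped as well, with a log2 fold change of 0.10 and an SE of 0.05. Mlx shares 385 exonic bases with Psmc3ip on the opposite strand (means of 935.1 and 126.8 counts per library), and reads there cannot be assigned without strand.

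Mlxipl (chromosome 5, 135089890 to 135138382), encoding ChREBP, was barely detected, with 42 counts over all 11 libraries. It had 0 to 7 counts in a control library and 1 to 6 in a hypoxia library. Control 3 had 0 counts, which allows up to 0.0965 CPM for counting error alone. It did not pass the filter. With no filter on low counts its log2 fold change was -0.09 with an SE of 0.52, so small or moderate differences in Mlxipl were not detectable at this depth.

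**Figure D3:**
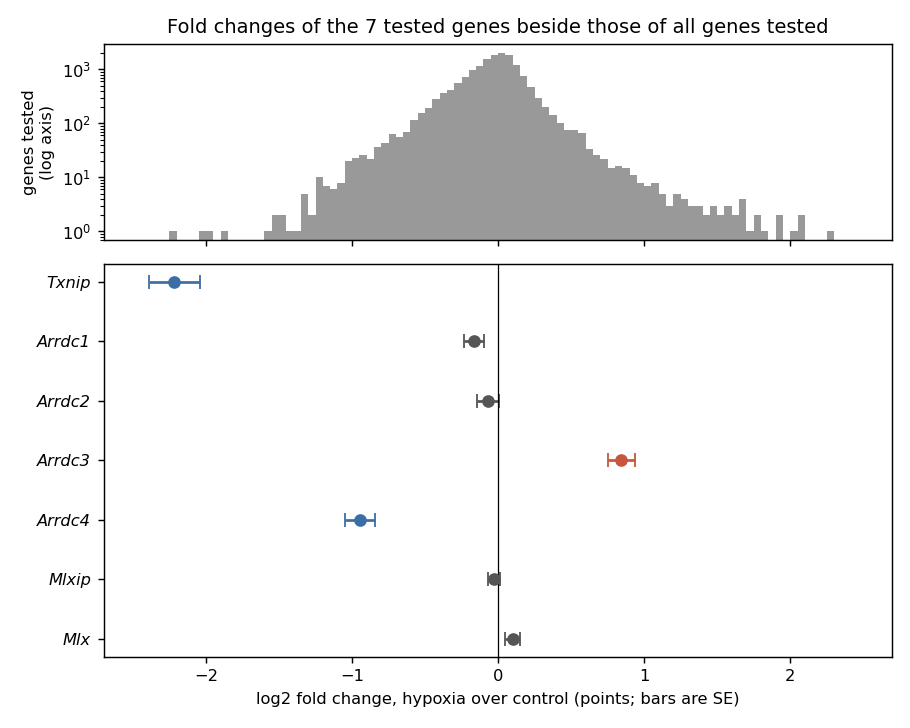
Top, log2 fold changes of all 16235 genes tested (number of genes on a log axis); bottom, log2 fold changes of the 7 tested genes of the set, hypoxia over control, with SE bars, blue for called lower, red for called higher and grey for not called. Txnip lies at -2.22, at the edge of all genes, and Mlxip at -0.03.

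Scaled by exonic length (RPKM, CPM per kilobase of exon), Arrdc3 and Mlx stood highest in control, at 17.0 ± 2.81 and 17.0 ± 1.03 RPKM (SD, n = 6), and did not differ beyond their spread. Arrdc4 followed at 14.1 ± 1.41, Txnip at 9.05 ± 1.84, Mlxip at 6.86 ± 0.229, Arrdc1 at 5.35 ± 0.399 and Arrdc2 at 4.09 ± 0.374 RPKM. In hypoxia the order was Arrdc3 at 30.6 ± 2.78, Mlx at 18.2 ± 0.962, Arrdc4 at 7.26 ± 1.47 and Mlxip at 6.73 ± 0.331 RPKM (SD, n = 5), the last pair within their spread. Arrdc1 at 4.78 ± 0.369 and Arrdc2 at 3.91 ± 0.328 RPKM came next, and Txnip was now below both, at 1.93 ± 0.632 RPKM. These orders depend on the exon lengths used. The basic annotation shortens Arrdc3 from 6266 to 4150 bases and Arrdc1 from 2510 to 1666, and leaves Arrdc4 at 4039. With its lengths, Arrdc1 and Arrdc4 were level in hypoxia, each at 10.6% of the summed alpha-arrestin RPKM, and Txnip stayed lowest at 3.08%.

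The make-up of the alpha-arrestin mRNA therefore differed, while the summed level of the 5 genes was close, at 49.6 ± 6.23 RPKM in control and 48.5 ± 4.92 RPKM in hypoxia. Arrdc3 supplied 34.3 ± 1.74% of this sum in control and 63.2 ± 1.48% in hypoxia. Txnip supplied 18.1 ± 1.88% and 3.92 ± 0.872%, and Arrdc4 28.4 ± 0.860% and 14.9 ± 1.55%. The shares of Arrdc1 (10.9 ± 1.29% and 9.91 ± 1.05%) and Arrdc2 (8.32 ± 0.971% and 8.10 ± 0.767%) overlapped between the groups. With exon lengths from the basic annotation, which shorten Arrdc3 from 6266 to 4150 bases, the sums were 63.4 ± 7.96 and 68.2 ± 6.48 RPKM. Which mean is higher depends on the annotation, and under both the groups lay within their spread. The Arrdc3 share was then 40.4% and 67.8%. Txnip supplied 15.6% and 3.08%, Arrdc4 22.2% and 10.6%, and Arrdc1 12.8% and 10.6%.

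**Figure D4:**
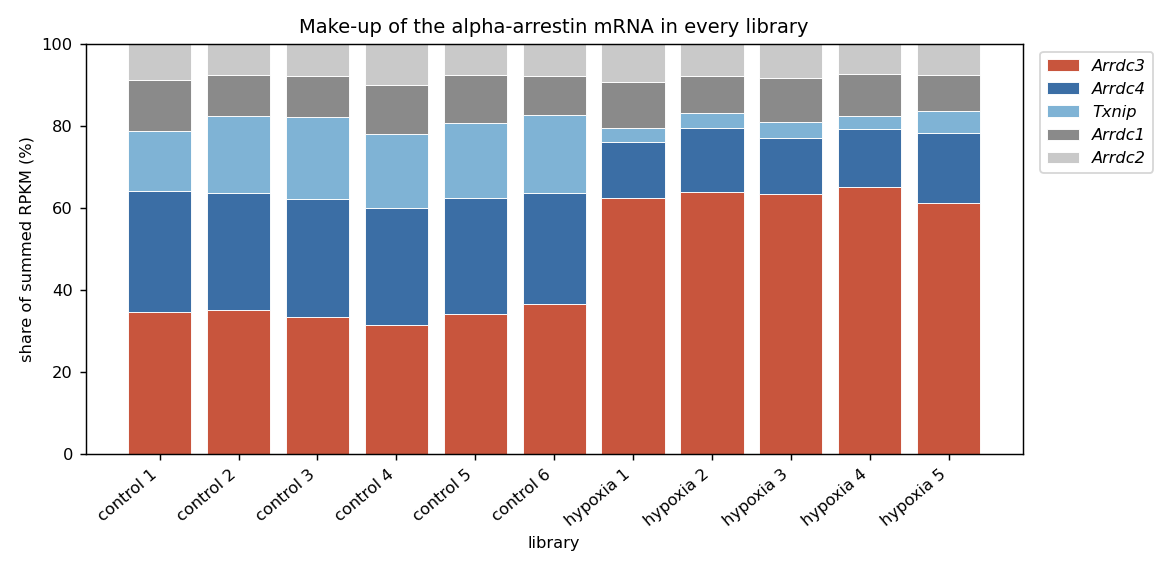
Share of each alpha-arrestin gene in the summed RPKM of the 5 genes (stacked to 100%) in every library. Arrdc3 takes 31.5 to 36.7% in the control libraries and 61.2 to 65.1% in the hypoxia libraries, and Txnip at most 5.44% in hypoxia.

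Within each group, Txnip, Arrdc4 and Arrdc3 were high or low in the same libraries. Among the controls, control 6 was the highest for all 3 genes (Txnip 35.5, Arrdc4 64.2 and Arrdc3 135.8 CPM), and control 1 and control 4 were the lowest 2. Among the hypoxia libraries, hypoxia 5 was the highest for all 3, and hypoxia 3 was the lowest for Arrdc4 and Arrdc3, whereas Txnip was level in hypoxia 1 to 4. Over the 6 controls, log2 Txnip and Arrdc4 had a Pearson r of 0.931 (exact permutation p = 0.00417, 0.0208 adjusted over 5 relations) and a Spearman rho of 0.943 (exact permutation p = 0.0167, adjusted 0.0835). For Arrdc4 and Arrdc3 r was 0.962 (exact permutation p = 0.0139, adjusted 0.0278) and rho 0.771 (exact permutation p = 0.103, adjusted 0.17). For Txnip and Arrdc3 r was 0.837 (exact permutation p = 0.0472, adjusted 0.059) and rho 0.714 (exact permutation p = 0.136, adjusted 0.17). Without the 2 controls farthest from the median, r was 0.958, 0.962 and 0.883 over 4 libraries. Controls 1 and 6 were left out for both Txnip relations, and controls 1 and 4 for Arrdc4 and Arrdc3. Control 4 was then the lowest of the 4 for both genes of each Txnip relation. For Arrdc4 and Arrdc3, control 6 was the highest of the 4 for both genes. With 1 such library kept each time, these values cannot show whether the relations hold without it. None of the rank correlations passed after adjustment. The relations were chosen after the levels were seen and the adjustment does not cover that choice, so their p-values are a description only. Among all genes, an r as high was found in 1% for Txnip and Arrdc4, 0.203% for Arrdc4 and Arrdc3 and 5.28% for Txnip and Arrdc3. Thus Arrdc3, which differed the opposite way between the groups, did not run opposite to Txnip or Arrdc4 within the controls.

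Markers of other cells were set beside these libraries. Hypoxia 5 had the highest fibroblast marker sum of all libraries, 312.6 CPM against 153.8 to 199.6 CPM in the other hypoxia libraries, with Col1a1, Col1a2, Col3a1, Dcn and Lum all highest there within the group. The endothelial marker sum was also highest there among hypoxia libraries (27.4 CPM against 20.7 to 22.7 CPM) and ran from 20.7 CPM in control 1 to 30.7 CPM in control 6, the libraries with the lowest and highest control Txnip. Of the 6 endothelial markers, Kdr made up most of this sum (18.73 to 28.95 CPM), while Cdh5, Pecam1, Tek and the defining marker Cldn5 were below 1 CPM in every library and Cldn5 was at 0 in 6. Over the controls, log2 Txnip and the endothelial sum had an r of 0.924 (exact permutation p = 0.0167, adjusted 0.0278) and a rho of 0.714 (exact permutation p = 0.136, adjusted 0.17). This relation rested on control 1 and control 6, without which r was 0.329. An r as high was found in 1.27% of genes for the endothelial sum and 18.4% for the fibroblast sum. For the fibroblast sum r was 0.646 (exact permutation p = 0.165, adjusted 0.165), rho was 0.314 (exact permutation p = 0.564, adjusted 0.564), and r was 0.0292 without the same 2 libraries. Between the groups the endothelial sums overlapped (20.7 to 30.7 CPM in control, 20.7 to 27.4 CPM in hypoxia), and so did the fibroblast sums. Without hypoxia 5 the log2 fold change of Txnip was -2.47 and that of Arrdc4 -1.07. The part of these cells in the spread within groups and in the difference between the groups was not tested.

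**Figure D5:**
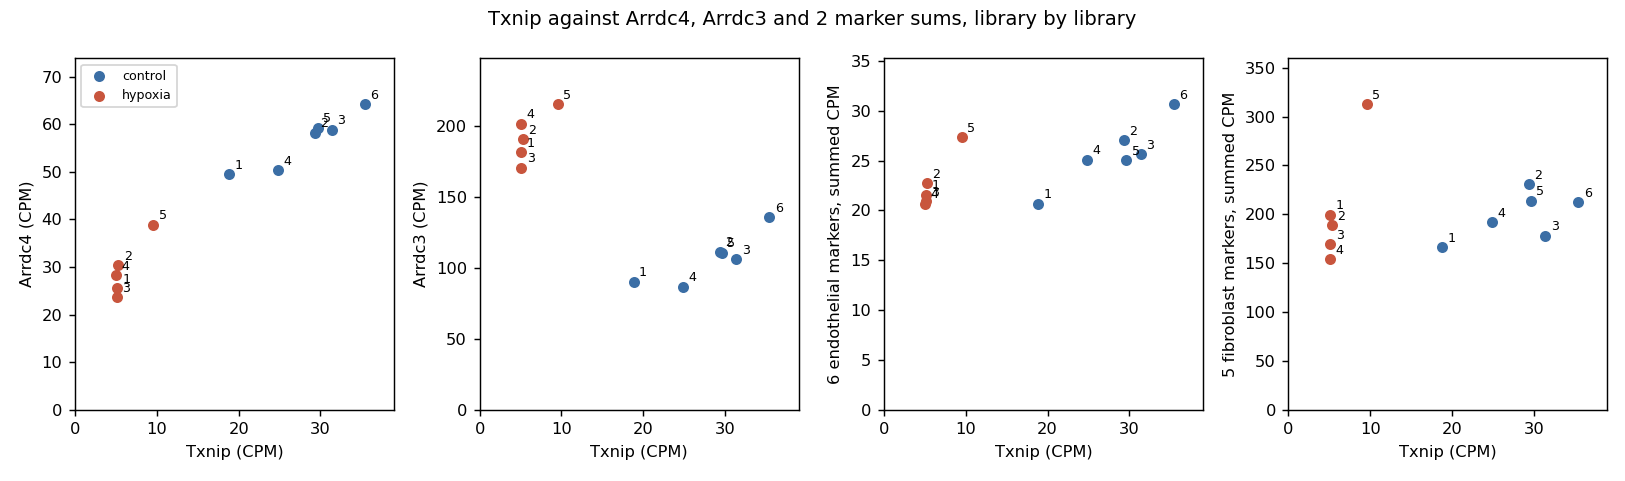
Txnip (CPM, horizontal axes) against Arrdc4, Arrdc3, the summed endothelial markers and the summed fibroblast markers (CPM, vertical axes), with each library numbered by its replicate. Control libraries spread from control 1 at 18.8 CPM to control 6 at 35.5 CPM of Txnip, and hypoxia 5, at 9.54 CPM of Txnip, lies to the right of the other hypoxia libraries in every panel.

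Genes were ranked by how near their pattern over the 11 libraries lay to that of Txnip or Arrdc4. The ranking took tested genes with a mean of at least 5 CPM in the higher of the 2 groups. Txnip and Arrdc4 themselves were left out of both rankings. The distance includes the difference between the groups, and Txnip had the lowest log2 fold change of all, so the order mostly restates the size of each gene's decrease. With each gene centred on its control mean of log2 CPM, the nearest to Txnip was Nabp1, a single-stranded DNA binding protein, at a root mean square difference of 0.75 on the log2 scale. It was followed by the mitochondrial tRNA gene mt-Tl1 at 0.78, Gm38393 at 0.85, Gm17494 at 0.86 and 1110032F04Rik at 0.86. Arrdc4, left out here, lay at 0.83 from Txnip, between mt-Tl1 and Gm38393. Nearest to Arrdc4 were 1110032F04Rik at 0.13, Vmac at 0.17, Gm17494 at 0.17, Gm38393 at 0.19 and the RNA-binding protein gene Mex3b at 0.20. All of these were called lower, which the search for a like pattern favours.

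The lists of related genes from here on were chosen with earlier results of these data known. Their counts and p-values are therefore a description, and nothing is read from the counts beside the shares of all genes. Among other known targets of MondoA and ChREBP, more were called higher than lower in hypoxia. Of 27 listed, 23 were tested, 8 were higher and 1 was lower, against 10.1% higher and 12.8% lower of all genes. Their median was 0.11 on the log2 scale. The higher ones with the smallest p were Bhlhe40, a transcriptional repressor, Pfkfb3, which makes an activator of phosphofructokinase, hexokinase 2 (Hk2) and Thrsp, a lipogenic gene. Their log2 fold changes were 1.35, 1.26, 1.76 and 0.49 (edgeR quasi-likelihood adjusted p = 7.98e-08, 2.00e-07, 3.88e-05 and 0.000157). Bhlhe40, Pfkfb3, Hk2 and Ldha, which was also higher (log2 fold change 0.39), are known HIF targets as well. Acly and Scd2, of fatty acid synthesis, rose by 0.14 each on the log2 scale, and Klf10 by 0.16, a call lost under 10 of 18 alternatives. Acacb, an acetyl-CoA carboxylase, was lower (-0.43), a call lost under 8 of 18, 6 of them single libraries left out (controls 3, 4, 5 and 6, hypoxia 1 and 4; adjusted p up to 0.0705). The lipogenic genes Fasn, Acaca and Elovl6 did not pass, with log2 fold changes of 0.08, 0.07 and -0.01. Pklr, G6pc, Fgf21 and Slc2a2, known as targets in liver, were too low to test.

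Genes that bring glucose in and make or use glucose 6-phosphate, the signal MondoA senses, were higher for 7 of 18 tested and lower for 1 (44.4% called, against 22.9% of all genes), and their median was 0.11 on the log2 scale. The glucose transporter Slc2a1, which TXNIP binds, rose from 22.6 ± 5.04 to 66.7 ± 3.67 CPM (log2 fold change 1.55, edgeR adjusted p = 1.02e-07) and the neuronal transporter Slc2a3 by 0.24 on the log2 scale. Hk2 rose by 1.76, the housekeeping hexokinase Hk1 by 0.17 and phosphoglucomutase Pgm1 by 0.40. In hypoxia 5, where Txnip was highest, Slc2a1 (67.0 CPM) and Pfkfb3 (309.7 CPM) lay within the range of the other hypoxia libraries, and Hk2 was the highest (99.8 CPM against 73.3 to 91.0 CPM). Gpi1 rose by 0.31 and G6pdx by 0.11, the latter call lost under 11 of 18 alternatives. The amidotransferase gene Gfpt2 of the hexosamine pathway was lower (-0.22), a call lost under 6 of 18 alternatives (edgeR adjusted p up to 0.0725). These were no filter on low counts and leaving out control 3, control 5, hypoxia 2, hypoxia 4 or hypoxia 5.

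Of 12 genes of the MLX, MAX and MXD network, 2 were higher and 2 lower (33.3% called, against 22.9% of all genes). Mxi1, a MYC antagonist and known HIF target, rose from 29.8 ± 2.44 to 41.1 ± 2.65 CPM (edgeR adjusted p = 3.60e-05) and Mga rose by 0.26 on the log2 scale. Mxd4, which can pair with MLX, was lower (-0.22), as was Mycl (-0.19). Mxd1 and Mnt, the other MLX partners, had log2 fold changes of 0.05 and -0.15 and did not pass.

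Of 15 genes for proteins that TXNIP binds and for the thioredoxin system tested with edgeR, 2 were higher and 0 lower (13.3% called, against 22.9% of all genes); at an unadjusted p under 0.05 another 2, Txnrd1 and Prdx3, were higher and 0 lower. Ddit4, whose product REDD1 binds TXNIP and restrains mTORC1, rose from 105.9 ± 23.0 to 223.5 ± 20.5 CPM (edgeR adjusted p = 9.89e-06), and the other was Slc2a1. Thioredoxin itself (Txn1) was at 120.8 ± 7.07 and 117.0 ± 1.97 CPM, and Txn2, Txnrd1 and Txnrd2 did not pass. DESeq2 called 4 of these genes higher, and edgeR 6 without control 1. The inflammasome sensor gene Nlrp3 was below the filter.

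Among NEDD4-family ligases and their adaptors, 2 of 13 were higher and 1 lower (23.1% called, near the 22.9% of all genes). Smurf1 rose by 0.16 and Hecw2 by 0.16 on the log2 scale, and Smurf2 fell by 0.19; the Hecw2 call was lost without hypoxia 3 (adjusted p = 0.063). Itch, the ligase of TXNIP, had a log2 fold change of 0.01, and Nedd4 and Nedd4l of 0.06 and -0.00. At an unadjusted p under 0.05, Nedd4 was also higher (946.7 to 968.6 CPM in control, 974.6 to 1023 CPM in hypoxia) and Ndfip2 lower (log2 fold change -0.08). Among other genes with an arrestin fold, edgeR called 2 of 8 higher and 0 lower (25% called, near the 22.9% of all genes). At an unadjusted p under 0.05, Vps26c was also higher and 0 were lower. The beta-arrestin gene Arrb1 rose from 356.3 ± 8.16 to 401.7 ± 5.98 CPM and the retromer subunit gene Vps26b by 0.11 on the log2 scale. The Vps26b call was lost under 5 of 18 alternatives (edgeR adjusted p up to 0.0658). These were leaving out control 2, 3 or 4 or hypoxia 4, and a fit that paired libraries of the same number. Arrdc5, the remaining alpha-arrestin, had 0 counts in every hypoxia library and was near 0 in control.

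AMPK, a kinase that phosphorylates TXNIP, had 1 gene higher and 2 lower of 8 tested, upstream kinases included (37.5% called, against 22.9% of all genes). The catalytic subunit gene Prkaa1 fell from 47.4 ± 1.93 to 37.2 ± 2.16 CPM (edgeR adjusted p = 4.96e-05) and the upstream kinase gene Camkk2 by 0.24 on the log2 scale, while Prkab2 rose by 0.15. Of 12 other factors described at the Txnip promoter or in oxygen sensing, 1 was higher and 2 lower (25% called, near the 22.9% of all genes). Foxo3, a forkhead factor, rose from 47.7 ± 4.52 to 69.4 ± 3.19 CPM (edgeR adjusted p = 8.19e-06) and Foxo1 fell by 0.14 on the log2 scale, a call lost with no filter on low counts (adjusted p = 0.076). Nfyb, a subunit of the CCAAT-binding factor NF-Y, fell by 0.16, a call lost under 6 of 18 alternatives, among them leaving out control 1 or 5 or hypoxia 1 or 3 (adjusted p up to 0.0758). Foxo4, Nfya, Nfyc, Nfe2l2, Nr3c1, Hsf1, Hif1a, Epas1 and Arnt did not pass. These lists share genes (Hk2 and Slc2a4, Slc2a1, Itch), so their counts are not independent.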

How the data were processed

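For each of the 6 control and 5 hypoxia libraries the authors deposited a table of raw read counts by Ensembl ID. Per the submitters' processing notes the build was mm10 and the tools included STAR 2.5.2b, featureCounts and Subread 1.5.1; the labels and notes used here name no annotation release, strand setting or treatment of multi-mapped reads. Their deposited comparison tables hold log2 fold changes, adjusted p-values and, per library, a normalized signal equal to the count over 1 size factor. Of the IDs, 48349 had a symbol.

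Genes were filtered with filterByExpr, scaled with TMM and tested with edgeR 4.0.16 (R 4.3.3; glmQLFit, glmQLFTest, 2-sided, no covariate, Benjamini-Hochberg over 16235 genes holding 99.9% of counts, called under 0.05). The SE is the log2 fold change over the square root of F. Log2 CPM had 0.5 added. Exon lengths and positions are from GENCODE M21 (GRCm38), promoters from RefSeq, and DESeq2 1.42.0 was an alternative. The fit was tested on simulated data. Groups and replicates came from titles. Library pairs of 1 group differed by more than sampling noise, by a chi-square of their counts over genes. The genes and lists were chosen with earlier results of these data known; text names all 8 genes, up to 4 called genes of each list by p, and the 5 genes nearest in pattern to Txnip and to Arrdc4. Further list genes were named after their values were seen. Without molecular identifiers, floors cover counting error only.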

Additional observations from a re-analysis of the deposited data

Results flagged for a closer look

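Txnip in hypoxia 5, at 9.54 CPM, stood apart from the other 4 hypoxia libraries at 5.05 to 5.27 CPM: its gap to the nearest was 0.952 of the group's range, above the 95% limit of 0.71. This was the 1 such library among 16 groups of values looked at (8 genes in 2 conditions), where chance flags about 1 in 20.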

How the results depend on the processing

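All 7 tested genes of the set kept their direction and their side of the threshold under all 18 alternatives (other scalings, filters, DESeq2, robust fitting, the replicate block, and each library left out). Their log2 fold changes ran from -2.47 to -2.14 for Txnip, -1.07 to -0.88 for Arrdc4, 0.79 to 0.93 for Arrdc3, -0.19 to -0.12 for Arrdc1 and 0.08 to 0.13 for Mlx. All genes called ran from 1385 to 2081 higher and 1500 to 2042 lower with 1 library left out. With no filter on low counts, 0 MondoA and ChREBP targets, 0 glucose genes and 0 promoter factors were lower. DESeq2 called 4 TXNIP partners higher. With 1 library left out the counts ran from 0 to 1 (lower targets), 0 to 1 (lower glucose genes), 2 to 6 (higher TXNIP partners), 1 to 2 (higher NEDD4 genes), 1 to 2 (higher arrestin-fold genes) and 1 to 3 (lower promoter factors). Same-numbered control and hypoxia libraries correlated at -0.176, 0.167, -0.0734, -0.0944 and 0.319 in their deviations from the group means. For replicates 2 and 5 the control of the same number correlated best with the hypoxia library, and for replicates 1, 3 and 4 it did not. These values do not settle whether the numbers pair the samples. With the replicate block, 1300 genes were higher and 1637 lower, 0 targets lower, 1 arrestin-fold gene higher and 1 promoter factor lower; Txnip was at -2.17, Arrdc4 at -0.92 and Arrdc3 at 0.93. Restricting motifs to the bases before the start gave 6.02% of windows for E-boxes. The shorter exon lengths, chosen after seeing the data, changed shares as given above. The causes of these moves were not tested.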
